A study of Homo sapiens with 6 samples.

Results

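Receptor tyrosine kinases are read here in COLO-320DM, a human colon cancer cell line, after its cells had been sorted by the surface protein CD44. The genes were taken by symbol from a list of 46 receptor tyrosine kinases that leaves out class III, the family of KIT and the PDGF receptors. Of the 46, 44 had a probe set, a group of array probes read as 1 value, that the platform annotation names for that gene alone, among 19775 such genes in all. A gene is represented by its brightest probe set on average. EPHB2 was not analysed here, and the probe sets of DDR1 are annotated to MIR4640 as well and are given separately. Total RNA of untreated CD44-positive and CD44-negative cells was hybridised on 6 arrays, 3 in each group, and both groups carry the replicate numbers 01, 02 and 03. All 6 arrays are of this 1 line, so they describe no other tumour. Nothing in the labels ties the arrays to separate cultures. The p-values therefore cover the spread among these samples alone, and that spread may be technical.

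A receptor tyrosine kinase binds its ligand outside the cell, pairs with another receptor and phosphorylates tyrosines on itself, to which adaptor proteins then bind. The adaptors lead to the RAS-ERK, PI3K-AKT and phospholipase C pathways, which drive growth, survival and movement. In the gut epithelium the EGF, insulin-like growth factor and HGF receptors are known for growth control, and the EPHB receptors for holding cells in place along the crypt. By its title the series concerns tankyrase inhibitors and KIT, and the receptors described here are relatives of KIT.

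The sort marker was read first. CD44 stood at 7.70 ± 0.52 in the sorted positive cells and 5.23 ± 0.22 in the negative ones (log2, SD, n = 3), with no overlap (exact permutation test, two-sided, p = 0.1, the smallest that 3 arrays against 3 can give). The negative cells were near the dim limit of 5.12 (the 30th percentile of all genes, log2), so the difference of 2.47 is approximate. All 7 CD44 probe sets above that limit were higher, by 2.06 to 5.12. In limma CD44 had an adjusted p of 0.106, and with same-numbered arrays as pairs of 0.00176. The arrays were alike in scale, with median intensities from 44.9 to 46.5 and pairwise correlations of log2 values from 0.992 to 0.997 (0.9915 at the lowest). Of 9 epithelial markers 6 lay above the dim limit, among them KRT8 and KRT18, but EPCAM, CDH1 and KRT19 lay under it on average. KRT20, a keratin of differentiated gut epithelium, was 0.63 higher in the CD44-positive cells with no overlap (adjusted p = 1.00, paired 0.298). Of 9 endothelial markers 6 were above it, while CDH5 was at 3.23. The mean over all 9 was 5.49 to 5.59 in the CD44-positive and 5.50 to 5.56 in the CD44-negative arrays. Of 10 fibroblast markers 6 were above it, 3 higher and 3 lower, and the mean over all 10 was 5.67 to 5.999 against 5.54 to 5.57. Among the collagens, COL3A1 differed by 0.78, higher in 3 of 3 pairs (adjusted p = 1.00, paired 0.0526), COL1A2 by 0.31 and COL1A1 by -0.23, the last 2 with no overlap. Over all genes tested, the groups did not overlap in 5.43%. COL1A2 averaged 5.40 in the CD44-positive arrays but 5.09, under the dim limit, in the CD44-negative ones, so its difference is approximate. Of 6 leukocyte and 7 neuroendocrine markers on the array, 3 each were above the dim limit. The 3 neuroendocrine markers above the limit, ENO2 (0.49), SYP (0.17) and NCAM1 (0.080), were higher in 3 of 3 pairs (13.7% of all genes). SYP had no overlap, and none passed. ENO2 averaged 5.42 in the CD44-positive arrays but 4.93, under the dim limit, in the CD44-negative ones, so its difference is approximate. CHGA, CHGB, SCG2 and SCG3 were dim on average. The part of the cell type markers in the results was not tested.

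No receptor kinase separated the CD44-positive from the CD44-negative cells. Of the 44 genes, 30 had a mean above the dim limit and were tested within the 13842 genes above it. None passed limma's test at an adjusted p of 0.05, and none of all genes did (0%). When arrays of the same number were treated as pairs (the replicate block), again none of the 30 passed, against 0.0578% of all genes. The smallest adjusted p among them was 1.00 without the block and 0.463 with it. At an unadjusted limma p under 0.05 there were 0 of the 30 without the block (1.97% of all genes, 1.24% higher and 0.73% lower). With it there were 2, FGFR3 higher and FGFR4 lower (6.67%, against 7.49% of all genes, 4.24% higher and 3.25% lower). The groups overlapped in all 30 receptors, whereas they did not overlap in 5.43% of all genes (2.82% higher and 2.6% lower).

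The differences themselves were small. Each is a log2 value in which a positive sign means higher in CD44-positive cells, and they ran from -0.19 for IGF1R to 0.41 for FGFR3, with 12 genes higher and 18 lower, where 48.9% of all genes were higher. Their median was -0.019, against -0.0025 over all genes. The median size was 0.060 for the receptors and 0.060 for all genes. In 28 of the 30 receptors the 95% interval lay within 0.5 on either side of 0, which is 1.41-fold, and in 88.1% of all genes it did. The 2 receptors with wider intervals were FGFR3 and ROR1. Of the class III receptors, KIT stood at 9.60 ± 0.66 against 8.93 ± 0.15 (log2, SD, n = 3), a difference of 0.67 ± 0.29 (SE) that did not pass either (adjusted p = 1.00, with the block 0.442).

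**Figure D1:**
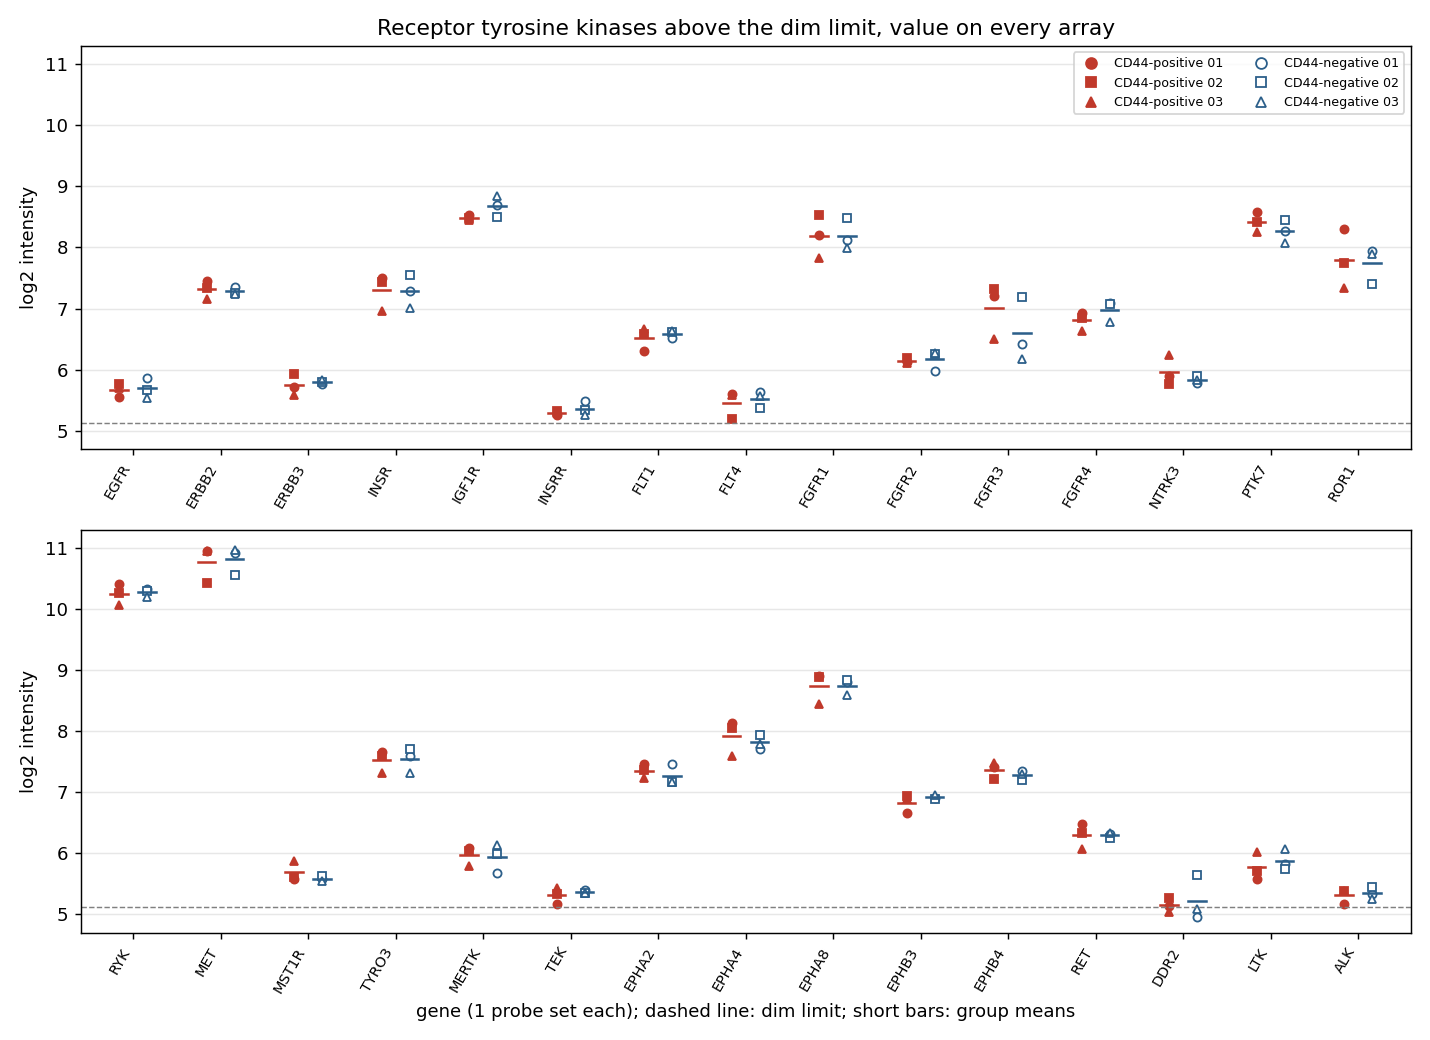
The value of each of the 30 receptor kinases above the dim limit on each of the 6 arrays (y axis, log2 intensity), with filled red symbols for CD44-positive and open blue symbols for CD44-negative arrays, a symbol shape for each replicate number, short bars for group means and a dashed line at the dim limit of 5.12. Red and blue symbols overlap in all 30 genes. Levels of different genes come from different probe sets and are not comparable with each other.

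The FGF receptors, which bind fibroblast growth factors together with heparan sulfate or klotho proteins, held the largest difference of the tested receptors. FGFR3 read 7.20, 7.31 and 6.50 on CD44-positive arrays 01, 02 and 03, and 6.42, 7.20 and 6.18 on the CD44-negative arrays of the same numbers (log2). Each CD44-positive array was above its same-numbered partner, but the groups overlapped because both arrays numbered 02 were high and both numbered 03 low. The difference was 0.41 ± 0.29 (SE), or 1.32-fold, with an interval from -0.27 to 1.08 and an adjusted p of 1.00. With the block the error shrank to 0.12 and the interval to 0.12 to 0.69, and the adjusted p was 0.463. The value depended on single arrays. It was 0.70 without CD44-negative array 02, 0.66 without CD44-positive array 03 and 0.20 without CD44-negative array 03. FGFR3 has only 1 other probe set, which was dim on average and differed by -0.17, and the mean of both differed by 0.12.

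FGFR4, the receptor that with the co-receptor KLB answers the gut hormone FGF19, was lower in 3 of 3 pairs. Its CD44-positive arrays read 6.93, 6.85 and 6.63 and its CD44-negative arrays 7.10, 7.07 and 6.78 (log2). The shift within a pair, -0.17, -0.22 and -0.14, varied little, but array CD44-negative 03 lay below CD44-positive arrays 01 and 02. The difference was -0.18 ± 0.12 (SE), with adjusted p = 1.00, or 0.608 with the block. It was -0.28 without CD44-negative array 03 and -0.089 without CD44-positive array 03. Of the 4 FGFR4 probe sets, all above the dim limit, 3 were lower and 1 was higher, from -0.19 to 0.12. FGFR1 averaged 8.19 ± 0.35 against 8.20 ± 0.25 (log2, SD, n = 3), a difference of -0.0066 with an interval from -0.45 to 0.44. FGFR2 differed by -0.030 (-0.27 to 0.21), with 2 of its 11 probe sets above the dim limit.

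The start regions of FGFR3 and FGFR4 are shown because these receptors had the smallest p with the block and lay on opposite sides of 0. Each line gives the 120 bases just before the RefSeq start of the gene (GRCh38.p14, plus strand), FGFR3 at chr4:1793173-1793292 and FGFR4 at chr5:177086795-177086914, with GC boxes, the letters GGGCGG that SP1-type factors are known to bind, in capitals.
FGFR3: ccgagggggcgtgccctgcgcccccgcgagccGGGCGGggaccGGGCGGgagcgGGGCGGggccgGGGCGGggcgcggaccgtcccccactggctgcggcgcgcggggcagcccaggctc
FGFR4: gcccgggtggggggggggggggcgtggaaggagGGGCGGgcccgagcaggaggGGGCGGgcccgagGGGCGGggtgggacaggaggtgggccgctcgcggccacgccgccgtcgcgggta
Both are rich in G and C, at 88.3% and 84.2%, and hold 4 and 3 GC boxes. GC boxes were common among these genes. Of the 42 receptor kinases with a promoter in the RefSeq table, 32 (76.2%) had GGGCGG on either strand in the 250 bases before the start, against 42.3% of 27305 promoters. The letters CTTTGA, the core of the TCF/LEF motif, were found on either strand in 2 of the 42, EPHA2 and TIE1 (4.76%, against 11.4% of all). The letters TATAAA were found on either strand in DDR2 and FLT1 (4.76%, against 11.1% of all). The 27305 promoters were not limited by gene type or to genes on the array, so the 2 sets may differ in kind. A match is a description of the letters and not a bound site.

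The insulin receptor family controls metabolism and growth, and IGF1R, which binds the insulin-like growth factors, had the smallest unadjusted p of the tested receptors. IGF1R read 8.53, 8.48 and 8.45 on CD44-positive arrays 01 to 03 and 8.70, 8.50 and 8.84 on the CD44-negative arrays (log2). The CD44-positive arrays lay close together and at or under the lowest CD44-negative array, apart from CD44-positive 01, which exceeded CD44-negative 02. The difference of -0.19 ± 0.11 (SE, interval -0.44 to 0.051) corresponds to a level 1.14-fold lower, with an adjusted p of 1.00, and of 0.685 with the block. Another IGF1R probe set gave -0.34, and the remaining 3 gave -0.19, -0.017 and 0.0058. Without pair 03 the blocked difference was -0.093. INSR averaged 7.30 ± 0.29 against 7.28 ± 0.27 (log2, SD, n = 3), a difference of 0.022 (-0.39 to 0.44), and all 4 of its probe sets above the dim limit were slightly higher, by at most 0.11. INSRR, an orphan relative known as a sensor of alkaline pH, differed by -0.065 (-0.28 to 0.15).

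The EGF receptor family was near the background in this line, apart from ERBB2, the partner without a ligand of its own. ERBB2 read 7.45, 7.34 and 7.16 in the CD44-positive and 7.35, 7.25 and 7.23 in the CD44-negative arrays (log2), a difference of 0.033 (-0.20 to 0.27). EGFR was at 5.67 ± 0.11 against 5.69 ± 0.16 (log2, SD, n = 3), and 5 of its 9 probe sets were under the dim limit. ERBB3, a kinase with little activity of its own that signals through its partners, stood at 5.74 ± 0.17 against 5.80 ± 0.03 (log2, SD, n = 3), with 3 of 5 probe sets dim, and ERBB4 was dim on all of its 4 probe sets. EGFR and ERBB3 differed by -0.023 and -0.059.

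MET, the receptor of hepatocyte growth factor, was well above the dim limit and overlapped between the groups. It read 10.95, 10.42 and 10.96 on CD44-positive and 10.91, 10.56 and 10.97 on CD44-negative arrays (log2), a difference of -0.035 (-0.43 to 0.36). The low values are those of number 02 in both groups, and with the block the interval narrowed to -0.20 to 0.13. CD44 isoforms with variant exons are known as MET co-receptors, so the gene is of interest in this sort, and the interval without the block reaches 1.35-fold at its outer end. MST1R, the receptor of macrophage-stimulating protein, differed by 0.11 (-0.13 to 0.34), with CD44-positive array 03 at 5.88 above all others.

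The ephrin receptors read contact with neighbouring cells through membrane-bound ephrins. In the A class, EPHA2 differed by 0.084 (-0.18 to 0.35), EPHA4 by 0.11 (-0.24 to 0.46) and EPHA8 by 8.64e-05 (-0.32 to 0.32). EPHA4 was higher on all 4 of its probe sets above the dim limit, by 0.061 to 0.11, but array CD44-positive 03, at 7.59, was the lowest of the 6. In the B class, EPHB3, known as a Wnt target of the crypt base, read 6.66, 6.94 and 6.89 against 6.91, 6.90 and 6.96 (log2), a difference of -0.094 (-0.32 to 0.13). Its low value was that of CD44-positive array 01. EPHB4 differed by 0.083 (-0.15 to 0.31) and was higher in 3 of 3 pairs, by 0.071, 0.0063 and 0.17.

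PTK7, ROR1, ROR2 and RYK bind Wnt proteins or act beside their receptors. PTK7, a pseudokinase of planar cell polarity, read 8.58, 8.42 and 8.26 against 8.27, 8.45 and 8.07 (log2), a difference of 0.16 (-0.14 to 0.45). The pair numbered 02 went the other way, by -0.026. ROR1, a receptor for WNT5A, was among the most variable members, at 7.79 ± 0.48 against 7.74 ± 0.30 (log2, SD, n = 3), with pair differences of 0.35, 0.35 and -0.56. RYK differed by -0.032 (-0.28 to 0.21), and ROR2 was dim, between 3.04 and 3.34 on the 6 arrays.

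The remaining receptors gave no larger difference. RET, the receptor of the GDNF family, averaged 6.30 ± 0.20 against 6.30 ± 0.05 (log2, SD, n = 3), a difference of -0.0065 (-0.27 to 0.26). NTRK3, the receptor of neurotrophin-3, differed by 0.13 (-0.17 to 0.42), with CD44-positive array 03 at 6.24 the highest, and NTRK2 was dim. LTK differed by -0.11 (-0.43 to 0.21) and was lower in 3 of 3 pairs, but differed by only -0.013 without CD44-positive array 01 or CD44-negative array 03. Without CD44-positive array 03 it was -0.23. Its relative ALK differed by -0.037. Among the TAM receptors, which clear dying cells, TYRO3 differed by -0.014 and MERTK by 0.035, and AXL was dim. Of the receptors known from vessels, FLT1 (-0.077), FLT4 (-0.062) and TEK (-0.056) lay above the dim limit and KDR and TIE1 under it. Only 1 of 6 FLT1, 1 of 3 FLT4 and 1 of 2 TEK probe sets were above the limit. DDR2, a collagen receptor just above the limit, differed by -0.079. The 4 probe sets annotated to both DDR1 and MIR4640 stood at 6.85 to 7.89 in the group means, with differences of 0.016, -0.10, 0.050 and 0.050. In all, 5 of the 30 receptors kept their sign in 3 of 3 pairs (16.7%, against 28.5% of all genes). FGFR3 and EPHB4 were higher (13.7% of all genes), and IGF1R, FGFR4 and LTK lower (14.8%).

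**Figure D2:**
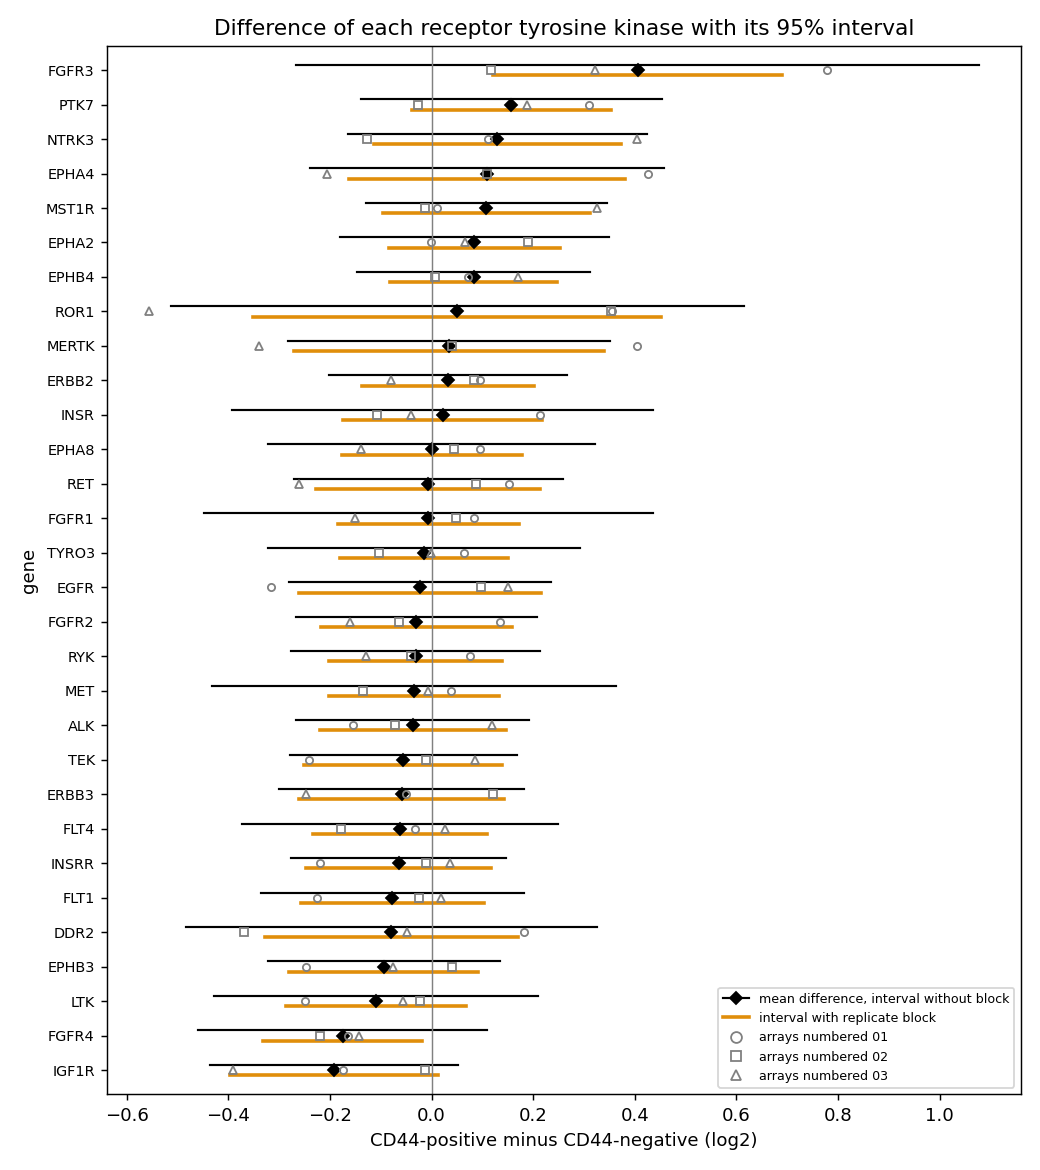
The difference of each tested receptor kinase (x axis, CD44-positive minus CD44-negative, log2; genes on the y axis), with black diamonds and lines for the mean and its 95% interval without the block, orange lines for the interval with the replicate block, and grey symbols for the 3 pairs of same-numbered arrays. All 30 black lines cross 0, and only the orange lines of FGFR3 (0.12 to 0.69) and FGFR4 (-0.33 to -0.018) do not.

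The 14 receptors under the dim limit were ERBB4, KDR, NTRK2, ROR2, MUSK, AXL, TIE1, EPHA1, EPHA3, EPHA5, EPHA7, EPHB1, EPHB6 and ROS1, and no probe set of any of them lay above it. EPHA3, a receptor for A-type ephrins, was singled out from these after its values were seen. It read 4.99, 3.60 and 4.49 on CD44-positive and 5.98, 4.10 and 5.27 on CD44-negative arrays (log2). CD44-negative arrays 01 and 03 were above the limit, each pair went the same way (-0.99, -0.50 and -0.78), and the groups overlapped. Tested without the dim filter, it differed by -0.75 ± 0.47 (SE) with adjusted p = 1.00. With the block the SE was 0.10 and the adjusted p 0.0970. The other EPHA3 probe sets, both dim, differed by -0.23 and 0.027. Most of these levels lie near the background, so the size of the difference is approximate. The groups did not overlap in 0 of the 14, and the share over all dim genes was not taken.

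Where a gene had several probe sets, these often went different ways. The 44 genes had 151 probe sets, 72 of them above the dim limit, of which 35 were higher and 37 lower. Of 20 genes with more than 1 probe set above the limit, 10 had all of them on the same side of 0. EPHA4, INSR, ROR1, ERBB2 and EPHB4 were on the higher side, and ERBB3, TYRO3, EPHB3, RET and LTK on the lower. In 1 of the 72 the groups did not overlap, a probe set of FGFR1 at -0.25. It differed from the other 5 of that gene, which ran from -0.15 to 0.11. The share without overlap over all probe sets was not taken. Over all genes tested, with 1 probe set each, it was 5.43%. Tested as 72 separate features among all probe sets, none passed without or with the block, and the smallest adjusted p was 0.366, for the IGF1R probe set at -0.34. Of the 30 probe sets used, 13 carry the suffixes _s_at or _x_at, which mark probes shared by several transcripts or prone to cross-hybridisation, among them those of FGFR3, RET and PTK7.

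**Figure D3:**
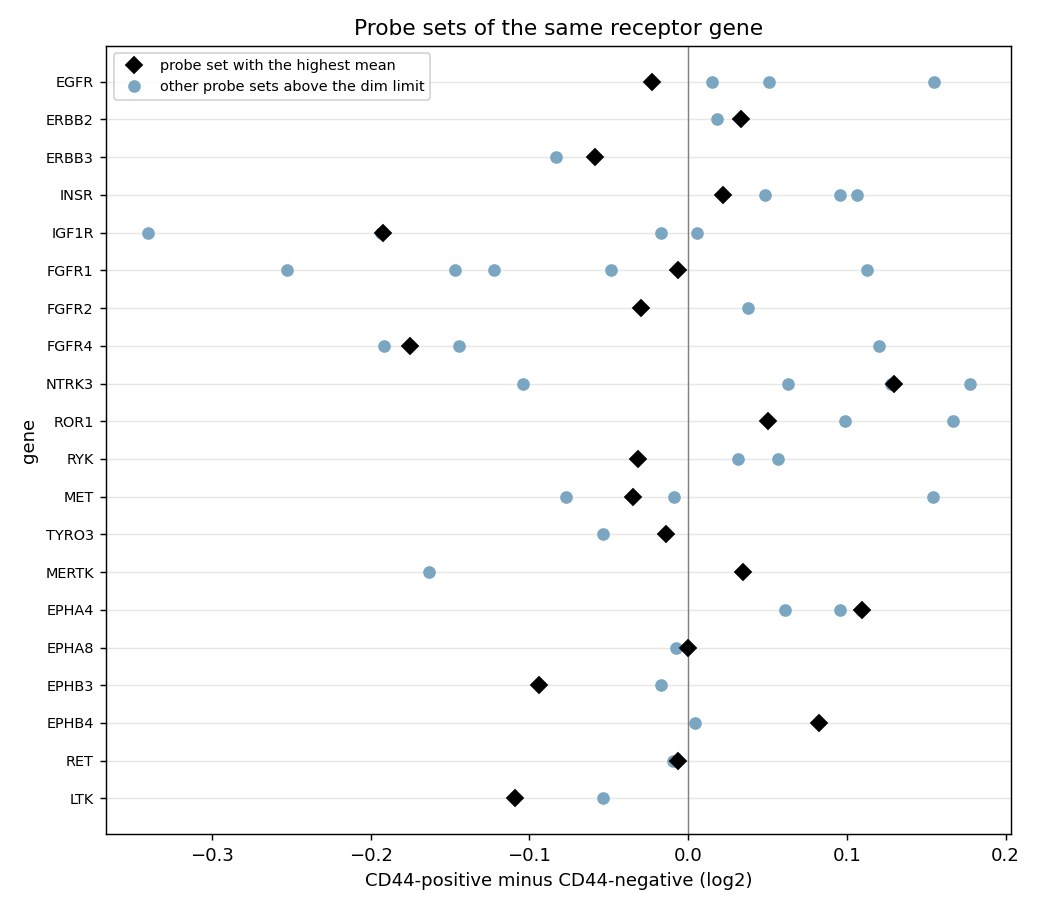
The difference of every probe set above the dim limit (x axis, CD44-positive minus CD44-negative, log2) for the 20 receptor genes (y axis) with more than 1, with black diamonds for the probe set used and blue dots for the others. FGFR1, FGFR4, MET, NTRK3 and EGFR have probe sets on both sides of 0, and the 5 of IGF1R run from -0.34 to 0.0058.

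Some receptors differed between replicate numbers, as many other genes did. The replicate number was tested with CD44 status kept in the model, a test chosen after the data had been seen. INSR, FGFR1, FGFR3 and MET passed (4 of 30, against 10.3% of all genes). FGFR3 averaged 6.81, 7.25 and 6.34 over both arrays of numbers 01, 02 and 03 (log2, adjusted p = 0.0269). FGFR1 averaged 8.17, 8.50 and 7.91 (adjusted p = 0.0245) and INSR 7.40, 7.49 and 6.99 (adjusted p = 0.0402). In these genes both arrays numbered 03 were the lowest or near the lowest. MET went differently, at 10.93, 10.49 and 10.96 (adjusted p = 0.0277), with both arrays numbered 02 low. The median range of the number means was 0.23 over the 30 receptors and 0.21 over all genes. The labels do not say what a number stands for, and what separates the numbers was not tested.

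**Figure D4:**
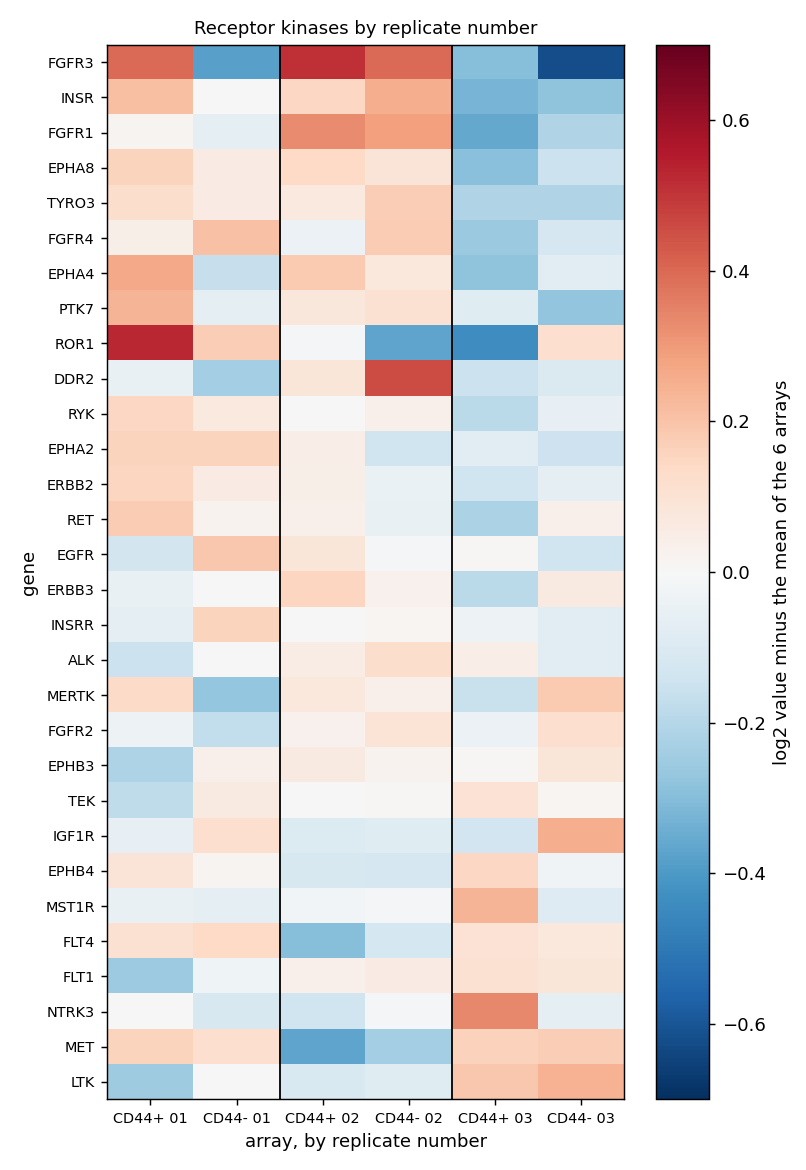
Each row is a tested receptor kinase and each column an array, ordered by replicate number with the CD44-positive and CD44-negative array of a number side by side, and the colour is the log2 value minus the mean of the gene's 6 arrays (red above, blue below, scale from -0.7 to 0.7). FGFR3, INSR and FGFR1 are blue in both columns of number 03, and MET is blue in both columns of number 02.

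The ligands, co-receptors, adaptors and regulators of these receptors were read from lists, and no gene of them passed without the block or with it. Of 67 ligands listed, 38 were tested, 18 higher and 20 lower, with a median of -0.0037. Of 17 co-receptors and IGF binding proteins 11 were tested, 6 higher and 5 lower. Of 43 adaptors and proximal signalling genes 33 were tested, 17 higher and 16 lower, with a median of 0.0070. Of 21 negative regulators and shedding proteases 18 were tested, 7 higher and 11 lower, with a median of -0.033. The groups did not overlap in 5 ligands (13.2%), 0 co-receptors, 6 adaptors (18.2%) and 1 regulator (5.56%), against 5.43% of all genes.

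The largest difference around the receptors was that of GRB10, an adaptor that binds the insulin and IGF1 receptors and is known to restrain their signal. GRB10 read 8.61, 7.90 and 8.18 on CD44-positive and 7.47, 7.38 and 7.55 on CD44-negative arrays (log2), with no overlap and all pairs higher, by 1.14, 0.52 and 0.63. The difference was 0.76 ± 0.17 (SE, interval 0.37 to 1.15). It did not pass over all genes (adjusted p = 1.00, with the block 0.122; exact permutation test, two-sided, p = 0.1). It passed in 3 of 24 alternatives: with the block without pair 02 (0.88, adjusted p = 0.00609), without pair 03 (0.83, adjusted p = 0.0186), and with the block, a variance trend and robust moderation together (adjusted p = 0.0104). In each of these 3 fits more of all genes passed than in the planned block, as counted further below. Pairs 02 and 03 are the pairs with the smaller GRB10 differences, and the fit with trend and robust moderation was added after the data were seen. Without pair 01, the pair with the largest difference, the GRB10 difference was 0.57 and did not pass. GRB10 had 3 probe sets above the dim limit, and in all 3 the groups did not overlap, with differences of 0.76, 0.44 and 0.57.

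Other members of the insulin and PI3K branch were less separated. PIK3R1, the regulatory subunit of PI3-kinase, read 8.84, 8.76 and 8.82 against 9.09, 8.98 and 8.98 (log2), a difference of -0.21 ± 0.08 (SE, adjusted p = 1.00, with the block 0.493), and all 3 of its probe sets were lower. The insulin receptor substrate IRS1 differed by 0.34 and the docking protein GAB1 by 0.21, with pair 03 on the other side of 0 in both, at -0.086 and -0.32. These 2 were named after their values were seen because they passed with the block once that contrary pair was left out (adjusted p = 0.0218 and 0.0414). With all pairs neither passed with the block (adjusted p = 0.615 for IRS1 and 0.839 for GAB1). In the fit without pair 03, more of all genes passed than with all pairs, as counted further below. DOK1, an adaptor that limits RAS signalling, differed by 0.16 with no overlap, and by 0.034 with overlap on its other probe set.

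Among the ligands, WNT5A, MDK and VEGFB had the smallest unadjusted limma p without the block. The largest ligand difference was that of FGF2, of the FGF family, at 0.40 with overlap (adjusted p with the block 0.292). FGF2 was named after its values were seen. WNT5A, which ROR1 and ROR2 bind, read 8.10, 8.62 and 8.18 against 7.98, 7.98 and 8.08 (log2). The groups did not overlap, but CD44-positive array 02 carried most of the difference of 0.29 ± 0.14 (SE, adjusted p = 1.00, with the block 0.615). Without that array it was 0.13, and on the other WNT5A probe set, where the groups overlapped, 0.095. Midkine, encoded by MDK and proposed as a ligand of ALK, differed by -0.17 and VEGFB, a ligand of FLT1, by -0.18, both lower in 3 of 3 pairs. Of the co-receptors, GFRA2, which presents neurturin to RET, differed by 0.22 and LRP4, the agrin receptor that partners MUSK, by 0.18, and the binding protein IGFBP4 by 0.13. LRIG3, a membrane protein related to the EGFR inhibitor LRIG1, differed by -0.27, with CD44-negative array 03 at 7.77 the highest. The ubiquitin ligase CBLC differed by 0.13 and the protease ADAM12 by -0.13. All of these had an adjusted p of 1.00 without the block. Several moved by over 1.5 times when an array or a pair was left out. IGFBP4 was 0.032 without CD44-positive array 02, LRP4 0.10 without that array and 0.29 without CD44-positive array 03. ADAM12 was -0.048 without CD44-positive array 01, and LRIG3 -0.14 without CD44-negative array 03. With the block and without pair 02, GFRA2 was 0.34.

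**Figure D5:**
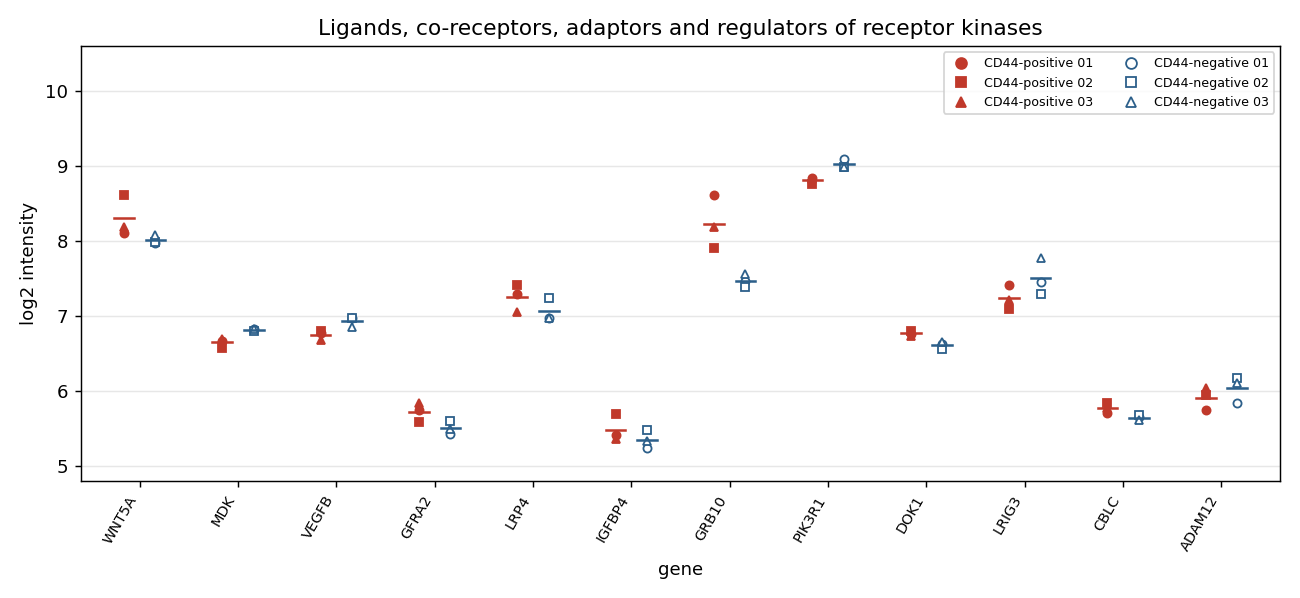
The values of 12 genes around the receptors on the 6 arrays (y axis, log2 intensity; symbols as for the receptors, short bars for group means), 3 from each list. The red GRB10 symbols lie between 7.90 and 8.61 and the blue between 7.38 and 7.55, and IGFBP4, GFRA2, LRP4, LRIG3 and ADAM12 overlap.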

How the data were processed

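Biotin-labelled cRNA from the sorted cells was read on Affymetrix arrays, per the labels. The deposited values are linear intensity values to which the authors applied RMA, which corrects background, equalises the distributions of the arrays and summarises probes,, per the submitters' processing notes. Its version and the genome build are not given in the sources used here. RMA forces a common distribution on the arrays, and it can shrink differences among dim probe sets.

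log2 was taken with no pseudocount from the deposited intensity values of 54675 probe sets. The annotation named 1 gene for 41091 of them. Genes whose mean lay below 5.12, the 30th percentile, were dropped, and 13842 stayed. Differences were tested with limma 3.58.1 in R 4.3.3 (lmFit and eBayes, two-sided, Benjamini-Hochberg over all genes, threshold 0.05), after the code had been tested on simulated data. Tables used Python 3.11.15 with pandas 2.3.3 and numpy 2.4.6, and figures matplotlib 3.10.9. Levels carry the SD of 3 arrays and differences the SE and 95% interval of the fit; the number of arrays limits the precision.

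The numbers 01, 02 and 03 were taken to pair the arrays from the data, since deviations from the group means correlated at 0.465, 0.689 and 0.626 within numbers. Across numbers the correlations ran from -0.496 to -0.107. Deviations from a group mean cancel out within the group, so negative values across numbers follow from positive ones within them and are no separate support. The design was set without the block.

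The members and lists were chosen with earlier results of these data known. To be named were members past the threshold, the 12 with the smallest unadjusted p, 15 set receptors, CD44, KIT and the 3 smallest p of each list. EPHA3, IRS1, GAB1 and FGF2 were chosen after their values were seen. Alternatives were median centring, another quantile normalization, other dim limits, other choices of probe set, robust moderation with a variance trend, weights on arrays, the replicate block and leaving out arrays or pairs.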

Additional observations from a re-analysis of the deposited data

How the results depend on the processing

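No receptor kinase passed an adjusted p of 0.05 under any of the 24 alternatives, and their median difference stayed between -0.049 and 0.025. The replicate block raised the count over all genes from 0 to 8, the receptors at an unadjusted p under 0.05 from 0 to 2, and left CD44 at 2.47, now past the threshold; it changed no other call. Given below are all genes at an adjusted p under 0.05, then receptors at an unadjusted limma p under 0.05, then the CD44 difference. At that unadjusted limit lay 1.97% of all genes without the block and 7.49% with it. For the other alternatives this share was not taken. Where every probe set is a feature, probe sets are counted. In the order given, no dim filter gave 2, 1 and 2.47, and array weights 1, 1 and 2.66. Every probe set as a feature gave 3 over all genes, and probe sets without the suffixes 1, with CD44 at 5.12. Added after seeing the data were the block with the variance trend and robust moderation (78, 2 and 2.47), array weights (43, 2 and 2.63), every probe set (28, 4 and 2.47) and no filter (5, 5 and 2.47). The planned block with mean probe sets gave 6, 2 and 1.65. With the block, trend and robust moderation together, 1 list gene passed. Leaving out arrays or pairs gave 0 to 127 calls over all genes at an adjusted p under 0.05. With the block these were 10, 63 and 127 without pairs 01, 02 and 03. Such fits gave 0 to 4 receptors at an unadjusted p under 0.05, and 0 to 3 list genes at an adjusted one. CD44 was at 2.26 to 2.76 (with the block 2.48, 2.29 and 2.64 without pairs 01, 02 and 03).

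Some small differences changed sign. With mean probe sets, with and without the block, MET was 0.0083 and RET 0.064. Array weights gave FGFR1 0.17, ERBB3 0.044, RET 0.024 and EPHB4 -0.0071, and with the block FGFR1 0.018, INSR -0.034, EGFR 0.028, ERBB3 0.020 and RET 0.036. With the block and without a pair, INSR was -0.074 (pair 01), MET 0.015 (pair 02) and FGFR1 0.066 (pair 03). Leaving out single arrays moved EGFR from -0.099 to 0.065 and NTRK3 from -0.0059 to 0.23, and took RET to at most 0.10. Leaving out arrays or pairs moved INSR from -0.11 to 0.19, EGFR -0.11 to 0.12, ERBB2 -0.035 to 0.11, MET -0.16 to 0.14, FGFR1 -0.17 to 0.17, ERBB3 -0.15 to 0.036, NTRK3 -0.0080 to 0.26, RET -0.096 to 0.12, INSRR -0.12 to 0.012, EPHA4 -0.048 to 0.28 and MST1R -0.00083 to 0.17. FGFR4 and IGF1R kept their sign in all 24 alternatives and FGFR3 in all 23 that gave it a value. Many of these, such as the block, other dim limits and the variance trend, leave the difference itself unchanged and could not turn a sign. Where every probe set was a feature, the sign was still read from the probe set used before. Another FGFR4 probe set was at 0.12, and the other of FGFR3, which was dim, at -0.17. The cause of the changes of sign was not tested. Signal near the background limits EGFR, ERBB3 and the dim receptors. It also limits DDR2, INSRR, ALK, TEK, FLT4 and MST1R, with group means from 5.15 to 5.69 (log2). In these a narrow interval does not show equal expression.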
